A study of Mus musculus with 13 samples.

Results

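The genes described are 9 regulators of limb bud outgrowth and identity: Tbx5, Tbx4, Pitx1, Fgf10, Fgf8, Lhx2, Lhx9, En1 and Lmx1b. They were chosen by name, with earlier results of these data known, as were the gene lists used below. Counts set against all genes are therefore descriptive. The 9 are part of 23217 genes in a table of expression values from whole mouse embryos. All 9 passed the filter that left 12755 genes for testing. Polyadenylated RNA was sequenced from 13 embryos of the C57BL/6J strain background collected at embryonic day 9.5, of which 3 carry the genotype label xHet and 10 the label xHomo. The labels do not spell out either name. From what is known of the study, which concerns the DNA demethylation enzyme Tet1, the fathers carried a Tet1 mutation on one or on both copies. The labels name no other allele, agent or litter, and nothing in them says whether embryos of one group came from separate mothers. The p-values therefore measure only the spread between these samples.

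Limb buds form as paired swellings of the flank, the forelimb before the hindlimb. Tbx5 starts the forelimb bud, while Pitx1 and its target Tbx4 act in the hindlimb bud. In both buds Fgf10 from the mesenchyme and Fgf8 from the apical ectodermal ridge sustain each other in a feedback loop that drives outgrowth. Lhx2 and Lhx9 are LIM homeobox genes of the distal mesenchyme that help relay this signal. En1 marks ventral ectoderm, and Lmx1b, likewise of the LIM homeobox family, specifies dorsal mesenchyme. None of the 9 is exclusive to limbs at this age: Tbx5 is also a heart gene, Pitx1 is expressed in the first pharyngeal arch and oral ectoderm, and Fgf8, En1 and Lmx1b are used at the midbrain-hindbrain boundary, the signalling centre between those brain regions. Lhx2 and Lhx9 are also forebrain genes. In a whole embryo, fewer cells of a type and less RNA per cell cannot be told apart.

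Since the study concerns DNA methylation, whose main substrate is the CG dinucleotide, promoters are shown for the LIM homeobox members to let their CG content be compared. RefSeq promoters on GRCm38.p6, each running from 250 bases before to 50 bases after the annotated start, were found for 6 of 9 members (En1, Lhx9, Lmx1b, Lhx2, Tbx4 and Fgf10), and Tbx5, Pitx1 and Fgf8 have no entry. CG dinucleotides are in capitals and each sequence is written 5′ to 3′ on the strand of its gene. The Lhx2 window lies at chr2:38351058-38351357 on the plus strand, the Lmx1b window at chr2:33641049-33641348 on the minus strand and the Lhx9 window at chr1:138842395-138842694 on the minus strand.
Lhx2: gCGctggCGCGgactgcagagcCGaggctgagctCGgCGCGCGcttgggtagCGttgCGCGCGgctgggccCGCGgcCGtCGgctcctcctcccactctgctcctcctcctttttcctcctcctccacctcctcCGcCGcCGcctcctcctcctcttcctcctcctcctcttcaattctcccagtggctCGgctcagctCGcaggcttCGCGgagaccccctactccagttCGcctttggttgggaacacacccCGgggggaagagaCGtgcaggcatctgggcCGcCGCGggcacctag
Lmx1b: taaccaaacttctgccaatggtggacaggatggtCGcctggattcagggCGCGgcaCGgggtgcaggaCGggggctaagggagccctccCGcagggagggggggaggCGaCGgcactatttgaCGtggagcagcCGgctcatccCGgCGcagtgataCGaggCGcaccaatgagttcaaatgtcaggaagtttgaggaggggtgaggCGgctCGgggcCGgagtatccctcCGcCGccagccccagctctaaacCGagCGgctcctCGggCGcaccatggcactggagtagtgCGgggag
Lhx9: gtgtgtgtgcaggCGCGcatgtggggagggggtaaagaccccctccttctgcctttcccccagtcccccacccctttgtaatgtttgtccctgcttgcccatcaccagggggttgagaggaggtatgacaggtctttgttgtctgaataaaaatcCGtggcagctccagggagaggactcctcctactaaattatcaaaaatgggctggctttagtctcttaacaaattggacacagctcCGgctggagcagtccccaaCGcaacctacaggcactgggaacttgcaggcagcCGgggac

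The Lhx2 window held 29 CG dinucleotides, more than 87.0% of the 32544 promoters in the RefSeq table, and a second annotated Lhx2 start held 34. The Lmx1b window held 24 and the En1 window 23. Lhx9 stood at the other end with 6, followed by Tbx4 with 8 and Fgf10 with 10, against a median of 7 over all promoters. The annotated starts need not be the ones the FPKM values cover. From start to gene end RefSeq gives 17259 bases for Lhx9 and 19333 for Tbx4, where the deposited loci, each with 2 start site IDs, span 22394 and 26035 bases, and for Lmx1b it gives 80134 against 75976. CG counts at other starts of Lhx9, Tbx4 and Lmx1b were not measured. Both strands of the 7 windows, the 2 Lhx2 windows included, were searched for GGTGTGA, a T-box core, CTTTGA, a TCF and LEF core, and TAATTA, a homeodomain core. There were 0 matches. These letters occur in 3.95%, 16.02% and 5.29% of all promoters of this length, so most windows lack each of them. Methylation of these windows was not measured in the data used here.

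Levels are in FPKM, fragment counts divided by transcript length and by the mapped fragments of the library, and the table does not show how many reads lie behind a value. One library stood apart: in xHomo embryo 3, 10.2% of tested genes lay at least 2-fold from the xHet mean, against 1.45% to 4.56% in the other xHomo embryos, and most of these were lower. Results for the limb genes are therefore also given without it. Xist, transcribed from the inactive X chromosome, was at 0.05 to 0.08 FPKM in the xHet embryos and ran from 30.5 to 158.8 FPKM in xHomo embryos 2, 3, 7, 9 and 10, so the groups were not balanced for it. Tet1 itself ran from 1.93 to 2.61 FPKM in the former group and from 1.11 to 2.87 FPKM in the latter.

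Over all 13 embryos the 9 genes fell into an upper and a lower tier of FPKM, a scale that is already per length. Fgf8 had the highest mean, 17.7 FPKM, and was above Pitx1 (12.3 FPKM) in 13 of 13 embryos. Pitx1 exceeded Lhx2 (11.8 FPKM) in 7 of 13 embryos only, so that order did not hold beyond the spread. A gap followed, since Lhx2 exceeded En1 (3.19 FPKM) in 13 of 13 embryos with ranges that did not meet. En1, Lmx1b (3.14 FPKM), Tbx5 (3.09 FPKM), Tbx4 (2.95 FPKM), Lhx9 (2.81 FPKM) and Fgf10 (2.72 FPKM) overlapped, each neighbour in this order being the higher in 6 or 7 of 13 embryos. In these whole embryos the level of Tbx4 was thus close to that of Tbx5, which is also a heart gene.

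**Figure D1:**
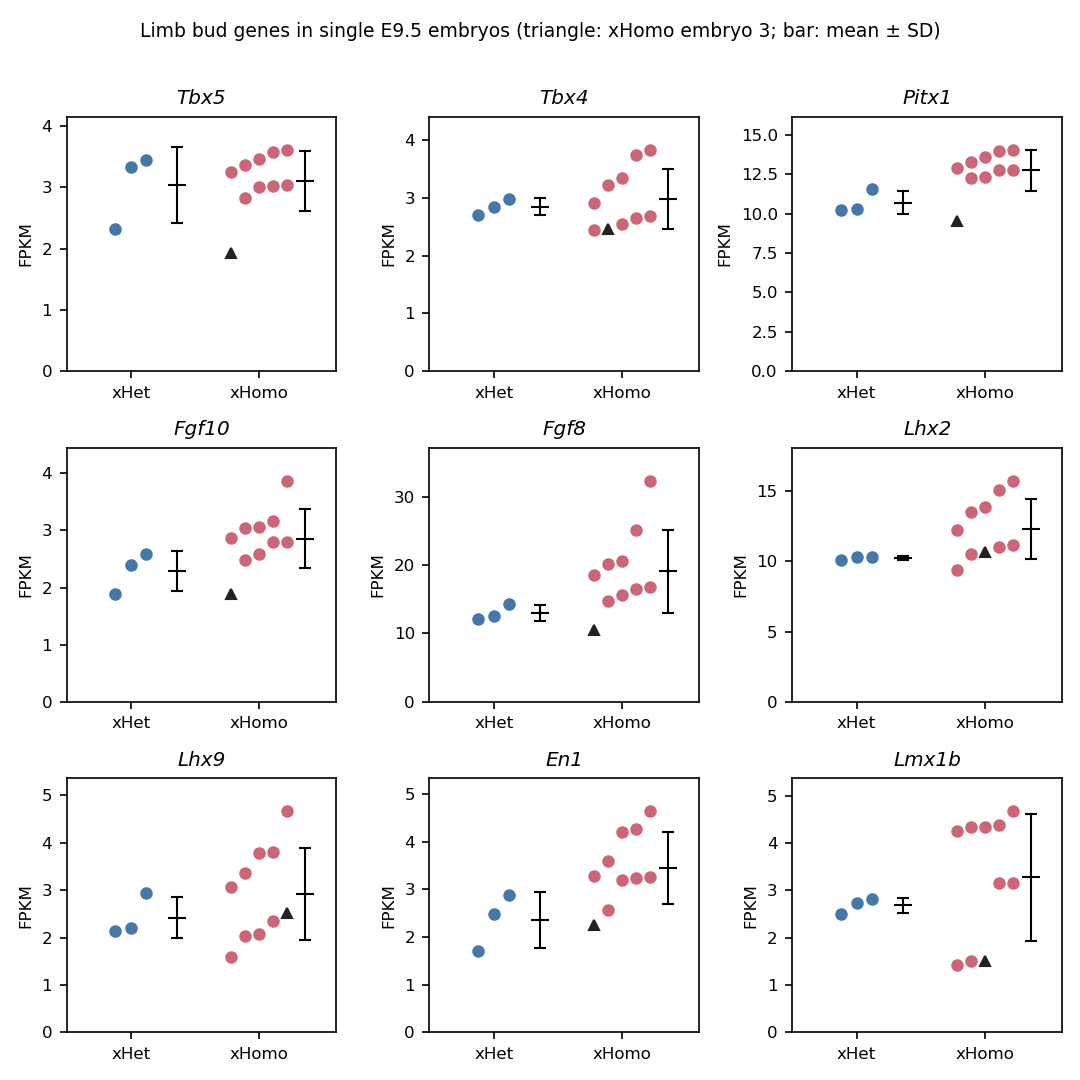
FPKM of the 9 limb bud genes in each embryo, one panel per gene, with xHet and xHomo embryos as points, xHomo embryo 3 as a triangle and horizontal bars at the group means with error bars of 1 SD. Pitx1, Fgf8 and Lhx2 each have 9 of 10 xHomo embryos above all 3 xHet embryos, whereas Tbx5 and Tbx4 overlap widely and Lmx1b splits into 3 low and 7 high xHomo embryos.

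The comparison of xHomo with xHet embryos asks whether the limb programme differed between the groups. None of the 9 genes passed limma at an adjusted p of 0.05 (0 of 9, where the background of genes called higher was 0.0235% and of genes called lower 0%). All 9 had a log2 difference above 0, as did 59.7% of all genes tested, although Tbx5 and Tbx4 turned below 0 when FPKM were rescaled to a common sum and Tbx5 also under median-of-ratios scaling. At an unadjusted p under 0.05, En1 and Pitx1 were higher, 2 of 9 against a background of 7.63%, and 0 of 9 lower against 1.72%, and an exact permutation test gave the same count with 0 passing after adjustment. In 0 of 9 did the groups not overlap, against 1.66% of all genes with every xHomo embryo the higher and 0.58% with every xHomo embryo the lower. The median log2 difference of the 9 was 0.22, against 0.046 over all genes tested. Without xHomo embryo 3 still 0 of 9 passed, against a background of 0.0781% called higher and 0.00781% called lower. In that fit 4 of 9 (Pitx1, En1, Fgf8 and Fgf10) were higher at an unadjusted p under 0.05 against a background of 12.4%, and 0 of 9 were lower against 2.59%. All 9 again had a difference above 0, as did 68.4% of genes, and the medians were 0.25 for the limb genes and 0.081 for all. With Xist as a covariate 0 of 9 passed as well. Weighting libraries by their scatter (limma array weights) moved 3 of 9, Pitx1, Fgf8 and En1, past the threshold, in a fit that called 18.6% of all genes higher and 3.2% lower. In these fits an estimate is a log2 difference of FPKM + 1, which understates the change of low genes.

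Tbx5, the T-box gene that initiates the forelimb (mm9 chromosome 5, 120284672 to 120335227), measured 2.32, 3.45 and 3.34 FPKM in xHet embryos 1, 2 and 3. Among xHomo embryos it ran from 1.93 FPKM in embryo 3 through a median of 3.145 to 3.61 FPKM in embryo 4. The ranges overlapped, with 6 of 10 xHomo embryos inside the xHet range. The means were 3.04 ± 0.623 (SD, n = 3) and 3.11 ± 0.491 FPKM (SD, n = 10), a log2 difference of 0.03 (SE 0.14, limma adjusted p = 0.958). That estimate changed sign when xHet embryo 1, the lowest of its group, was left out (-0.11, limma adjusted p = 0.926).

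Tbx4, the related T-box gene of the hindlimb (chromosome 11, 85703565 to 85729599), stood at 2.70, 2.85 and 2.99 FPKM in the xHet embryos. Among xHomo embryos the lowest was 2.45 FPKM, the median 2.80 and the highest 3.83 FPKM in embryo 5. The xHomo embryos lay on both sides of the narrow xHet range, 4 above it and 5 below it. The means were 2.85 ± 0.145 (SD, n = 3) and 2.99 ± 0.519 FPKM (SD, n = 10), a log2 difference of 0.04 (SE 0.12, limma adjusted p = 0.922).

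Pitx1, the homeobox gene upstream of Tbx4 (chromosome 13, 55926415 to 55932786), stood at 10.3, 10.3 and 11.6 FPKM in the xHet embryos. In xHomo embryos it ran from 9.56 FPKM in embryo 3 through a median of 12.9 to 14.1 FPKM in embryo 7. Of the xHomo embryos 9 of 10 were above every xHet embryo and embryo 3 was below them all. The means were 10.7 ± 0.731 (SD, n = 3) and 12.8 ± 1.28 FPKM (SD, n = 10), a log2 difference of 0.23 (SE 0.099, unadjusted p = 0.0362, limma adjusted p = 0.518). Without embryo 3 the groups did not overlap and the difference was 0.27 (unadjusted p = 0.000801, limma adjusted p = 0.187). The unadjusted limma p rose to 0.115 without xHet embryo 1, 0.122 without xHet embryo 2 and 0.0927 under TPM rescaling. It lay between 0.0530 and 0.0556 without xHomo embryo 6, 7, 8 or 10. It fell to 0.0155 under median-of-ratios scaling (adjusted 0.448) and to 0.0096 under quantile normalization (adjusted 0.360). Without xHomo embryo 3, non-overlap on the higher side was seen in 3.48% of genes tested and in 2 of 9 limb genes, Pitx1 and Fgf8.

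As a guide to the balance of forelimb and hindlimb genes, and so to stage, the 3 genes were set against one another within each embryo. They were compared as log2 ratios with 0.1 FPKM added to both genes. In whole embryos these ratios also take in Tbx5 of the heart and Pitx1 of the arch and oral ectoderm. They do not measure limb tissue alone. Tbx5 to Tbx4 was -0.21, 0.27 and 0.15 in the xHet embryos and ran from -0.34 in xHomo embryo 3 through a median of 0.02 to 0.47 in xHomo embryo 8. As a plain FPKM ratio this is 0.781 to 1.40 over all embryos, and Tbx5 was the higher in 7 of 13. The mean log2 ratios were 0.07 ± 0.25 (SD, n = 3) and 0.05 ± 0.24 (SD, n = 10), a difference of -0.02 (two-sided exact permutation test, p = 0.923, adjusted over 3 ratios 0.923). The groups overlapped throughout, and the sign of that small difference turned on single embryos.

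Tbx5 to Pitx1 averaged -1.80 ± 0.28 (SD, n = 3) in xHet and -2.01 ± 0.16 (SD, n = 10) in xHomo embryos, a difference of -0.21 (exact permutation p = 0.112, adjusted 0.336). This value turned on single xHet embryos: without xHet embryo 1 the difference was -0.36 (exact permutation p = 0.0152, adjusted 0.0455), and without xHet embryo 2 it was -0.081 (exact permutation p = 0.515, adjusted 0.667). Tbx4 to Pitx1 averaged -1.87 ± 0.054 (SD, n = 3) and -2.07 ± 0.24 (SD, n = 10), a difference of -0.19 (exact permutation p = 0.234, adjusted 0.351). Both ratios were below 0 in 13 of 13 embryos, so Pitx1 stood above either T-box gene everywhere. The smallest p that all splits of 13 embryos into 3 and 10 allow is 0.0035. Without xHet embryo 1 fewer splits exist, and the exact permutation p of 0.0152 given above is the smallest they allow.

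**Figure D2:**
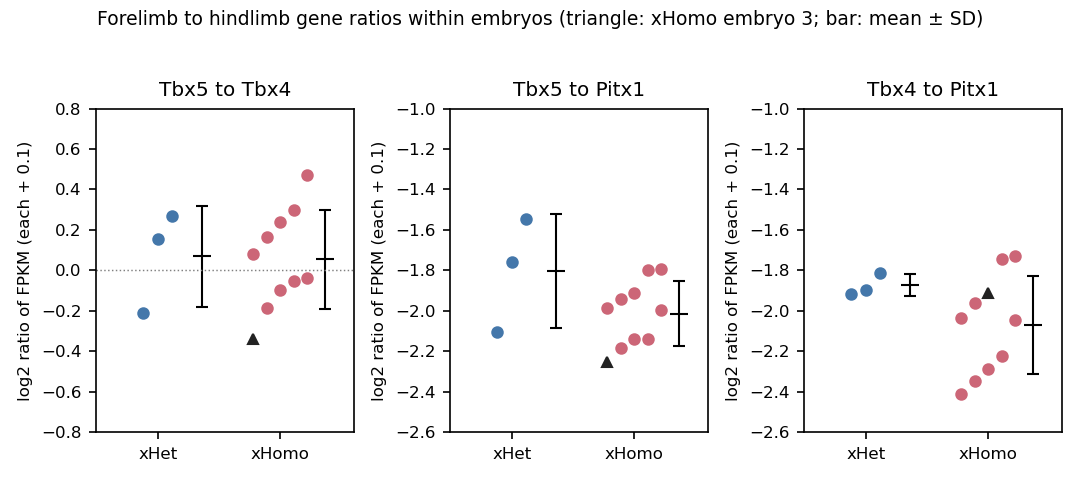
Log2 ratios of Tbx5 to Tbx4, Tbx5 to Pitx1 and Tbx4 to Pitx1 in each embryo (0.1 FPKM added to both genes), with bars at the group means and error bars of 1 SD. The Tbx5 to Tbx4 ratio scatters around 0 in both groups, from -0.34 to 0.47 in xHomo embryos, and the ratios to Pitx1 lie near -2 throughout.

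Of the 2 outgrowth signals, Fgf10 is the mesenchymal one (chromosome 13, 119503506 to 119581380). It stood at 1.89, 2.40 and 2.58 FPKM in the xHet embryos and ran from 1.88 FPKM in xHomo embryo 3 through a median of 2.83 to 3.87 FPKM in xHomo embryo 6. Above the xHet range were 8 of 10 xHomo embryos, and embryo 3 was just below it. The means were 2.29 ± 0.358 (SD, n = 3) and 2.86 ± 0.513 FPKM (SD, n = 10), a log2 difference of 0.22 (SE 0.13, limma adjusted p = 0.594). Without xHomo embryo 3 the difference was 0.27 (unadjusted p = 0.0238, limma adjusted p = 0.288), and without xHet embryo 1 it was 0.13 (unadjusted p = 0.410, limma adjusted p = 0.899).

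Fgf8, the ridge signal (chromosome 19, 45811288 to 45817374), had the largest log2 difference of the 9 genes with 1 FPKM added, while with 0.1 added En1 (0.53) exceeded it (0.49). It stood at 14.3, 12.6 and 12.1 FPKM in the xHet embryos, and among xHomo embryos the lowest was 10.6 FPKM in embryo 3, the median 17.7 and the highest 32.3 FPKM in embryo 9. Of the xHomo embryos 9 of 10 were above all xHet embryos, with embryo 8 (25.1 FPKM) next to embryo 9 at the top. The means were 13.01 ± 1.14 (SD, n = 3) and 19.1 ± 6.07 FPKM (SD, n = 10), a log2 difference of 0.47 (SE 0.23, unadjusted p = 0.0594, limma adjusted p = 0.544). Without embryo 3 it was 0.55 (unadjusted p = 0.0120, limma adjusted p = 0.255). Fgf8 was also the more variable signal, spanning 3.06-fold among xHomo embryos where Fgf10 spanned 2.06-fold.

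Lhx2 (chromosome 2, 38206828 to 38225248) was the tightest of the 9 genes among xHet embryos, at 10.1, 10.3 and 10.3 FPKM. In xHomo embryos it ran from 9.41 FPKM in embryo 2 through a median of 11.7 to 15.7 FPKM in embryo 5. Here embryo 2, not embryo 3, was the single xHomo embryo below the xHet range, and the other 9 were above it. The means were 10.2 ± 0.127 (SD, n = 3) and 12.3 ± 2.13 FPKM (SD, n = 10), a log2 difference of 0.23 (SE 0.13, limma adjusted p = 0.590). With log2 Xist as a covariate the difference was 0.38 (unadjusted p = 0.00501, limma adjusted p = 0.412), more than 1.5 times as large.

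Its paralog Lhx9 (chromosome 1, 140721763 to 140744156) was lower and more variable. It stood at 2.14, 2.93 and 2.20 FPKM in the xHet embryos and ran from 1.59 FPKM in xHomo embryo 7 through a median of 2.79 to 4.66 FPKM in xHomo embryo 5. The xHomo embryos lay above (5 of 10), within (2 of 10) and below (3 of 10) the xHet range. The means were 2.42 ± 0.440 (SD, n = 3) and 2.92 ± 0.974 FPKM (SD, n = 10), a log2 difference of 0.16 (SE 0.21, limma adjusted p = 0.820), and with the Xist covariate 0.33 (limma adjusted p = 0.651).

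En1, the ventral ectoderm gene (chromosome 1, 122499064 to 122504568), had the smallest unadjusted p of the 9. It stood at 1.71, 2.48 and 2.87 FPKM in the xHet embryos, and in xHomo embryos it ran from 2.25 FPKM in embryo 3 through a median of 3.26 to 4.63 FPKM in embryo 9. No xHomo embryo was below the xHet range, 2 were within it and 8 above it. The means were 2.35 ± 0.590 (SD, n = 3) and 3.45 ± 0.746 FPKM (SD, n = 10), a log2 difference of 0.40 (SE 0.16, unadjusted p = 0.0251, limma adjusted p = 0.512). Without xHomo embryo 3 it was 0.45 (unadjusted p = 0.00671, limma adjusted p = 0.236), and without xHet embryo 1, the lowest of all, 0.26 (unadjusted p = 0.180, limma adjusted p = 0.791). With the Xist covariate it was 0.33 (unadjusted p = 0.0845).

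Lmx1b, the dorsal determinant (chromosome 2, 33420056 to 33496031), had another pattern. In xHet embryos it was even, at 2.73, 2.51 and 2.81 FPKM. The xHomo embryos split, with embryos 1, 2 and 3 at 1.51, 1.42 and 1.51 FPKM and the other 7 between 3.15 and 4.67 FPKM. No xHomo embryo fell inside the xHet range: 3 were below it and 7 above it. The means, 2.68 ± 0.155 (SD, n = 3) and 3.28 ± 1.34 FPKM (SD, n = 10), therefore describe neither set, and the log2 difference was 0.14 (SE 0.28, limma adjusted p = 0.889). Lmx1b spanned 3.29-fold among xHomo embryos, the widest span of the 9 genes, and its SD of log2(FPKM + 1) was 0.51 there against 0.06 among xHet embryos. The labels give no batch, and Xist was at 0.10, 112.3 and 30.5 FPKM in xHomo embryos 1, 2 and 3.

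The 3 embryos low in Lmx1b were also the lowest over the 9 limb genes as a group. Measured from the xHet mean, xHomo embryo 3 had 2 of 9 limb genes above it, with a median log2 difference of -0.15, embryo 2 had 4 of 9 with a median of -0.07, and embryo 1 had 6 of 9 with a median of 0.10. The other 7 xHomo embryos had medians of 0.17 or more. Embryos 4, 5, 6 and 9 had 9 of 9 above it, with medians of 0.36, 0.33, 0.36 and 0.35. The libraries followed the same order: medians over all tested genes were 0.0098, -0.0035 and -0.27 in xHomo embryos 1, 2 and 3 and at least 0.058 in the other 7. Median-of-ratios scaling factors were 0.988, 0.974 and 0.775 in those 3 libraries and 1.02 to 1.11 in the others. In 6 of 11 other gene lists, the limb, fibroblast growth factor and boundary lists, embryos 1 to 3 again had the 3 lowest medians, and in the forebrain, heart, arch, endoderm and erythroid lists they did not. After median-of-ratios scaling the Lmx1b values of embryos 1 to 3 (1.46 to 1.95) and of the others (3.05 to 4.40) still did not meet. The split was narrower, since no gap then took up more than 0.5 of the range on the log2 scale. Unscaled, the largest gap took up 0.59. What part the shift of these libraries has in the other limb genes was not tested. As a group the limb genes had a spread close to that of other genes: their median SD of log2(FPKM + 1) was 0.12 in xHet and 0.23 in xHomo embryos, against 0.098 and 0.23 over all genes tested.

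**Figure D3:**
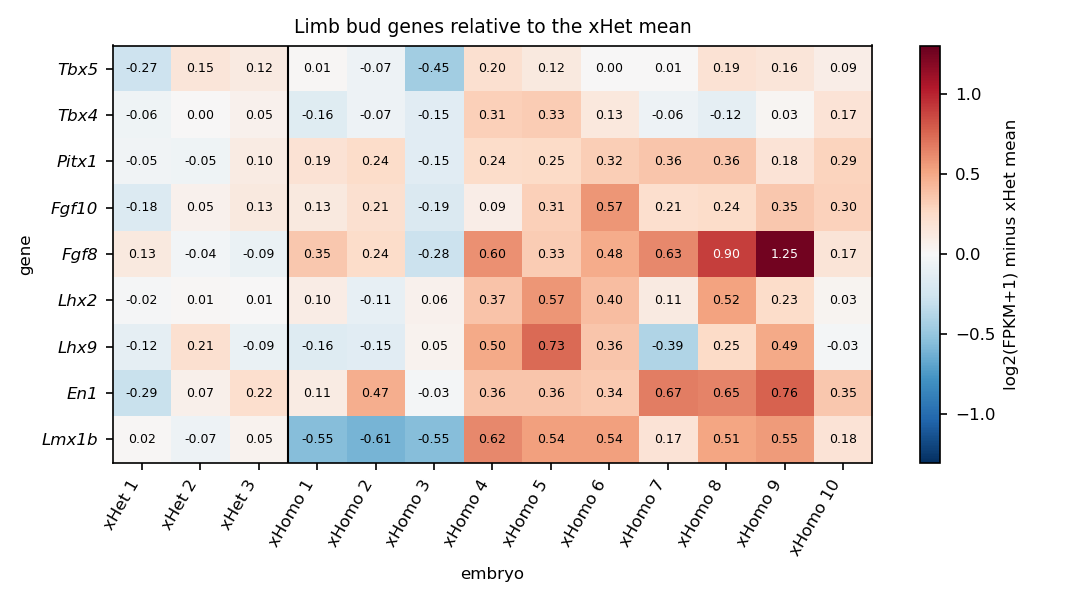
Difference of log2(FPKM + 1) from the xHet mean for each limb bud gene (rows) in each embryo (columns), with the value written in each cell and a colour scale from blue (lower) to red (higher). Lmx1b is low in xHomo embryos 1 to 3 and Fgf8 reaches 1.25 in xHomo embryo 9.

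Whether the genes varied together was examined among the 10 xHomo embryos, on log2(FPKM + 1). Tbx5, Pitx1 and Lmx1b were left out because 1 gap took up more than 0.5 of their range, at xHomo embryo 3 for Tbx5 and Pitx1 and at the split described for Lmx1b, which left 15 pairs of 6 genes. Fgf8 and En1 had the largest Pearson's r, 0.847 (permutation p = 0.00244, adjusted p = 0.0366), with Spearman's rho of 0.745 (permutation p = 0.0169, adjusted p = 0.214). This was the 1 pair of 15 that passed for r, and 0 of 15 passed for rho. Without the 2 embryos farthest from the Fgf8 median r was 0.597. Without xHomo embryo 3 it was 0.751, with an adjusted permutation p of 0.266 over 28 pairs, so the relation rests in part on extreme embryos. The pair passed in 5 of 10 fits with single xHomo embryos left out. Under median-of-ratios scaling its r was 0.751 (adjusted permutation p = 0.172 over 36 pairs). Both genes are shared by the ridge or ventral ectoderm of the limb and the midbrain-hindbrain boundary. Over 9 boundary markers the summed FPKM ran from 36.4 to 39.9 in xHet and from 33.1 to 70.9 in xHomo embryos, with xHomo embryo 3 lowest and embryo 9 highest, as for Fgf8 and En1. The part of boundary tissue in the relation was not tested.

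Lhx2 and Lhx9 gave the next largest r, 0.786 (permutation p = 0.00859, adjusted p = 0.0644), with rho of 0.697 (permutation p = 0.0309, adjusted p = 0.214), and neither passed after adjustment. Without the 2 embryos farthest from the Lhx2 median r was 0.747. The same 5 xHomo embryos, 4, 5, 6, 8 and 9, had the highest values of Lhx2 (at least 12.2 FPKM, the others at most 11.2), of Lhx9 (at least 3.06, the others at most 2.52) and of Lmx1b (at least 4.26, the others at most 3.16), a pattern noticed after the values were seen. Of these 5 embryos 4 had Xist at no more than 0.10 FPKM, as did 1 of the other 5, but embryo 9 had the highest Xist, 158.8 FPKM. The 3 xHet embryos, with Xist at 0.05 to 0.08 FPKM, were below these 5 in all 3 genes. They had Lhx2 at 10.1 to 10.3, Lhx9 at 2.14 to 2.93 and Lmx1b at 2.51 to 2.81 FPKM. A set of 5 embryos is too few for an r within either level of Xist, and its part in the relation was not tested. Tbx4 and Lhx9 followed with r of 0.687 (permutation p = 0.0322, adjusted p = 0.161), which dropped to 0.354 without the 2 farthest embryos. The loop partners Fgf8 and Fgf10 had r of 0.507 (permutation p = 0.126, adjusted p = 0.340), and their rho was 0.358 (permutation p = 0.314, adjusted p = 0.523).

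**Figure D4:**
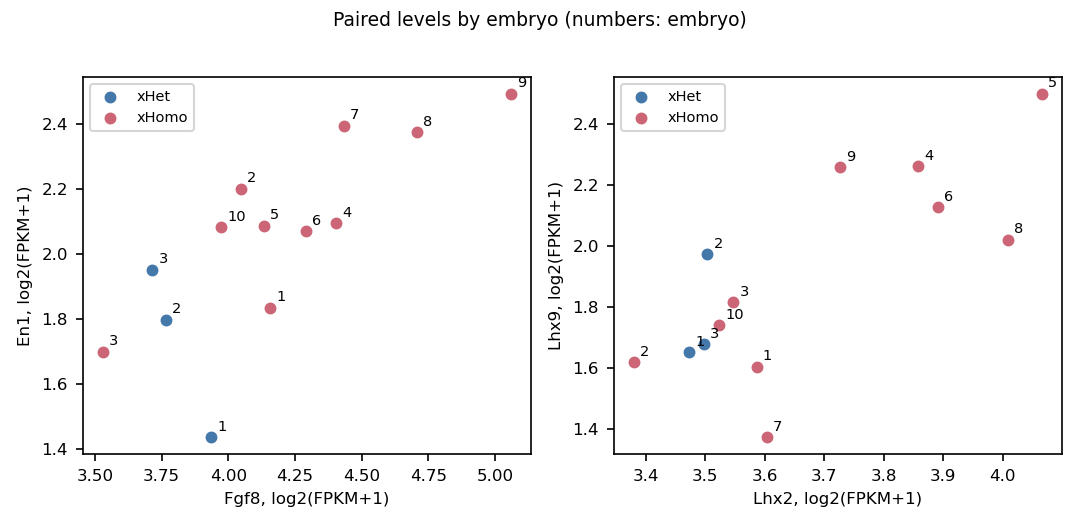
Scatter plots of log2(FPKM + 1) for pairs of limb bud genes, each point an embryo, with xHet and xHomo embryos in separate colours and embryo numbers beside the points. Among the 10 xHomo embryos r was 0.847 for Fgf8 and En1 and 0.786 for Lhx2 and Lhx9.

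Genes with the most similar profiles were sought over 13 embryos among 12462 other genes, as a description without a test, since embryos share depth and the shift of xHomo embryo 3. Pitx1 was most like Sp8, a zinc finger gene of the apical ridge, with r of 0.920 (0.878 without xHomo embryo 3). Close behind were 1700010I14Rik (0.912) and Plk2 (0.899). For Lhx2 the list held Abat (0.930), Alx4, a homeobox gene of anterior limb mesenchyme (0.924), and Tfap2b (0.923). Fgf8 was closest to 5031425E22Rik (0.968), Letmd1 (0.940) and Sobp (0.933), and En1 to Sorbs3 (0.935), Baiap2l1 (0.931) and 1700025G04Rik (0.924). For Lmx1b the closest were Tbl1x, a corepressor subunit gene (0.958), Akap2 (0.933) and Phc1, a Polycomb subunit gene (0.929). Fgf10 was closest to Senp6 (0.933), Lhx9 to Pgm5 (0.901) and Tbx4 to Arhgap42 (0.915). For Tbx5 the closest was Acap2 at 0.895, which dropped to 0.749 without xHomo embryo 3.

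Other genes of limb development were read from the same fit by lists of known role, and with all embryos 0 genes of any list passed limma or the exact permutation test. With array weights, where 18.6% of all genes passed as higher and 3.2% as lower, 9 of 15 ridge, 2 of 9 initiation, 3 of 19 mesenchyme, 4 of 11 posterior and 2 of 13 fibroblast growth factor response genes passed as higher and 1 mesenchyme gene as lower. In that fit 3 of 9 boundary, 6 of 10 heart, 3 of 8 forebrain and eye, 2 of 6 arch, 0 of 4 visceral endoderm and 0 of 6 erythroid genes passed, all as higher. Of 15 tested genes of limb ectoderm and apical ridge, 14 had a log2 difference above 0 and 5 had an unadjusted p under 0.05, all higher, with a median of 0.25. Fgf17, a ligand of the Fgf8 family, averaged 4.57 ± 0.388 FPKM (SD, n = 3) in the xHet group and 7.40 ± 1.29 FPKM (SD, n = 10) in the xHomo group (log2 difference 0.58, limma adjusted p = 0.372). It was the 1 listed gene that passed without xHomo embryo 3 (0.64, limma adjusted p = 0.0239). Fgf17 is also in the boundary list, so every count of either list includes it. The homeobox genes Msx1 (7.50 and 11.5 FPKM), Msx2 (8.68 and 11.9 FPKM) and Dlx5 (3.78 and 4.85 FPKM) each had a limma adjusted p of 0.494. Fgf4, a later ridge ligand, was under the filter, at no more than 0.39 FPKM in any embryo.

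With all embryos the mesenchymal and upstream lists had smaller medians. Among 9 tested genes of limb initiation, 8 had a log2 difference above 0 and 1, Lef1, an unadjusted p under 0.05 (12.1 and 14.4 FPKM), with a median of 0.11, and Aldh1a2, which makes the retinoic acid needed for forelimb induction, stood at 17.3 and 19.4 FPKM. Of 19 tested genes of limb bud mesenchyme, 15 were above 0 with a median of 0.15. In the posterior and sonic hedgehog list, 8 of 11 were above 0 with a median of 0.12, and Hand2 (8.42 and 10.9 FPKM) and Hoxd11 (3.72 and 5.77 FPKM) had an unadjusted p under 0.05. The 3 below 0 in that list were Gli1 (-0.25), Ptch1 (-0.18) and Hhip (-0.18), with 0 of them at an unadjusted p under 0.05. Among 13 fibroblast growth factor receptors and response genes, 9 were above 0 with a median of 0.043, close to the 0.046 of all genes. Dusp6, a phosphatase gene induced by FGF signalling, stood at 28.9 and 35.1 FPKM there, the 1 member of 13 with an unadjusted p under 0.05. The 4 genes of that list below 0 were Il17rd (-0.25), Fgfr4 (-0.16), Spry4 (-0.099) and Spry2 (-0.078). The counts with all embryos are to be read against the background of 59.7% above 0 and 7.63% with such a p on the higher side. Without xHomo embryo 3 the medians were 0.13 (initiation), 0.19 (mesenchyme), 0.22 (posterior) and 0.11 (fibroblast growth factor). The ridge list then had 0.25 and all genes 0.081. In that fit Gli1 was at -0.13, Ptch1 at -0.051, Hhip at -0.12, Il17rd at -0.14, Fgfr4 at -0.089, Spry4 at -0.072 and Spry2 at -0.029.

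Marker lists of tissues outside the limb that share these genes had medians in the same range. In the boundary list 8 of 9 genes were above 0 with a median of 0.22. Of these, 2 had an unadjusted p under 0.05, En2 and Fgf17, the latter also in the ridge list. Wnt1 reached 14.9 FPKM in xHomo embryo 9. Of 10 heart genes, which bear on Tbx5, 9 were above 0 with a median of 0.24 and 3 had an unadjusted p under 0.05, and their summed FPKM ran from 516.8 to 543.8 in xHet and from 446.7 to 905.3 in xHomo embryos. The 8 tested forebrain and eye genes, which bear on Lhx2 and Lhx9, had a median of 0.19, with 6 above 0 and 2 at an unadjusted p under 0.05, and their summed FPKM, with 3 genes under the filter included, ran from 35.0 to 37.2 and from 30.9 to 43.7. The 6 tested pharyngeal arch genes, which bear on Pitx1, had a median of 0.083, with 3 above 0 and 1 at an unadjusted p under 0.05. The 4 tested visceral endoderm genes had a median of 0.065 and the 6 primitive erythroid genes a median of -0.03, with 0 at an unadjusted p under 0.05 in either list. Markers of trophoblast and decidua, which a dissection can carry along, were nearly absent: 0 of 6 passed the filter, Tpbpa and Prl3c1 were listed at 0 in all embryos, and the sum was at most 0.52 FPKM in any xHet embryo and 3.27 FPKM in any xHomo embryo. The part that boundary, forebrain, arch or heart tissue has in the levels of the 9 limb genes was not tested.

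**Figure D5:**
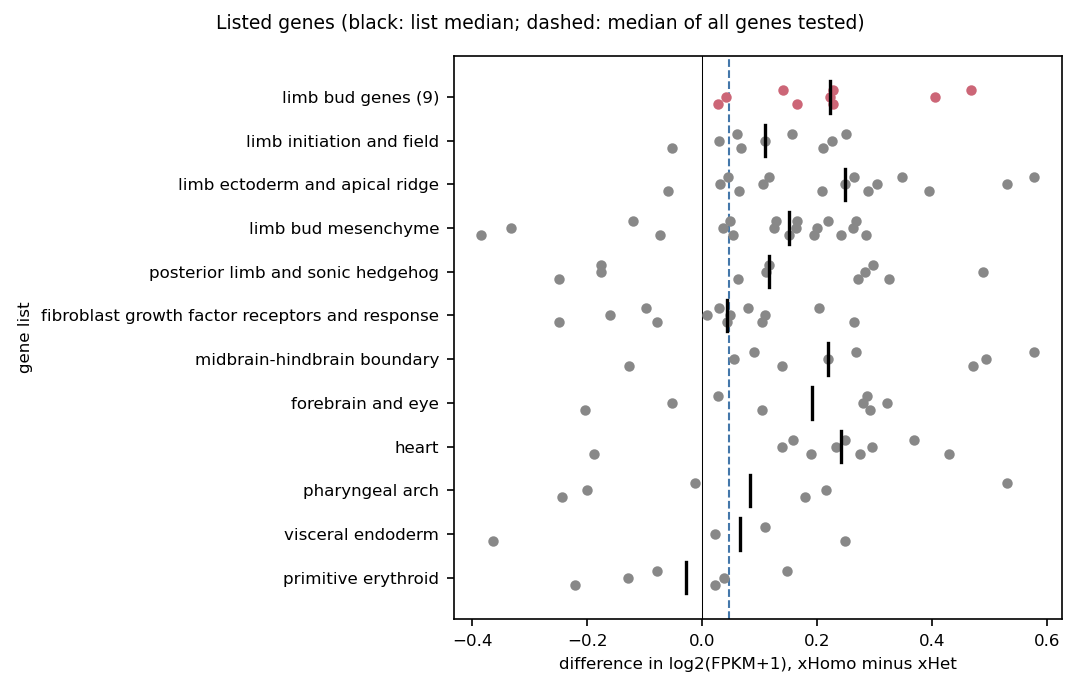
Limma log2 differences (xHomo minus xHet, on log2(FPKM + 1)) for the tested genes of each list, one point per gene, with a black bar at the list median and a dashed line at the median of all genes tested, 0.046. The limb bud genes (median 0.22) sit beside the ridge (0.25), heart (0.24) and boundary (0.22) lists, and the fibroblast growth factor response list lies at 0.043.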

How the data were processed

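RNA of 13 whole embryos was purified on RNeasy columns with DNase and made into poly(A)-selected directional libraries, per the labels' protocols. The authors deposited 1 table of FPKM values on mm9; bcl2fastq 1.8.2, TopHat and Cufflinks are named in the submitters' processing notes. For TopHat and Cufflinks the versions, gene models and settings are not stated in those notes. Whole reads could not be recovered (at best 28.7% to 47.4% of low values per embryo lay within 0.1 of a whole read), so depth is unknown and low genes are the least certain. Loci are counted from 1.

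The filter was a mean of at least 1 FPKM, and genes were tested on log2(FPKM + 1) with limma 3.58.1 in R 4.3.3 (trend, two-sided, no covariates), with Benjamini-Hochberg adjustment over 12755 genes at 0.05. Ratios had 0.1 added and an exact permutation test over all splits into 3 and 10. Correlations used 100000 permutations and left out genes whose largest gap exceeded 0.5 of their range. The 9 members and the lists were chosen with earlier results of these data known. Named genes were the members, up to 4 genes with the smallest p per list, up to 3 of the most similar genes per member, Tet1 and Xist. Fgf4, Tpbpa and Prl3c1 were named for being under the filter. Genes with a difference below 0 were also named in the posterior and the fibroblast growth factor response lists. Alternatives covered pseudocount, filter, scaling, an Xist covariate, array weights, an exact test, a replicate block and leaving out each embryo. The limma and correlation steps were tested on simulated data. Python 3.11.15, numpy 2.4.6, pandas 2.3.3, scipy 1.17.1 and matplotlib 3.10.9 were used.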

Additional observations from a re-analysis of the deposited data

Results flagged for a closer look

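Among 12 genes or ratios tested over the 10 xHomo embryos, Tbx5 and Pitx1 each had a lowest embryo far from the others, and in both it was xHomo embryo 3. Its gap to the next embryo, divided by the whole range of the group, was 0.585 for Tbx5 and 0.645 for Pitx1, against Dixon's critical value of 0.466. Chance alone flags about 1 in 20 such groups. The same embryo had 9.71% of all tested genes at least 2-fold below the xHet mean and a median-of-ratios scaling factor of 0.775. After that scaling no gap in Tbx5 or Pitx1 took up more than 0.5 of the range, and all 36 pairs were kept for correlation. Dixon's test was not repeated on scaled values, and the part of this embryo in both values was not tested further.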

How the results depend on the processing

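The number of genes called (3) became 11 without the filter, 5 under TPM rescaling, 5 under quantile normalization, 1 with Xist as a covariate, 2779 with array weights and 0 by the exact permutation test, where 1196 genes had an unadjusted p under 0.05. The 0 of the exact test is bound by its smallest possible p, 0.0035, and is no sign that fewer genes differ. The number called by limma ran from 1 to 11 when single embryos were left out. It was 1 without xHet embryo 2 or 3, 5 without xHomo embryo 2 and 11 without xHomo embryo 3. With array weights Pitx1 (0.28, limma adjusted p = 0.00536), Fgf8 (0.50, 0.0189) and En1 (0.38, 0.0252) passed. In these 23 fits the log2 differences of Pitx1, Fgf10, Fgf8, Lhx2 and En1 stayed above 0. Tbx5 turned to -0.013 under median-of-ratios scaling, -0.037 under TPM rescaling and ran from -0.11 without xHet embryo 1 to 0.10 without xHet embryo 2, and Tbx4 to -0.019 under TPM rescaling.

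The values gave no sign that replicate numbers pair the embryos. Deviations of same-numbered embryos correlated at -0.065, -0.040 and -0.038, and no xHet embryo correlated best with its own number. With only 3 such pairs this check cannot exclude a litter or batch shared by number. With a replicate block on embryos 1 to 3 of each group 1 gene was called, against 2 without the block on the same 6 embryos, a comparison added after the data were seen. In these 6 embryos the differences, with or without the block, were -0.17 for Tbx5, -0.13 for Tbx4, -0.088 for Lhx9 and -0.57 for Lmx1b, whose unadjusted limma p was 0.00591 with the block (adjusted 0.757). For the ratios the paired differences were -0.057 for Tbx5 to Tbx4, -0.32 for Tbx5 to Pitx1 and -0.27 for Tbx4 to Pitx1.

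Leaving out single embryos gave -0.156 to 0.0827 for Tbx5 to Tbx4, above 0 without xHet embryo 2 (0.0827) or 3 (0.0266) or xHomo embryo 3 (0.0283), 5 (0.0109) or 6 (0.0010). It gave -0.361 to -0.0811 for Tbx5 to Pitx1 and -0.232 to -0.157 for Tbx4 to Pitx1. Correlated pairs passing numbered 6 of 36 over all 13 embryos, a setting that pools the groups, so that a difference between them can itself make a correlation. Among xHomo embryos pairs passing numbered 0 under median-of-ratios scaling and 0 to 1 with single xHomo embryos left out, 0 without embryo 3, 5, 7, 8 or 9. The causes of these changes were not tested.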
